A study of Mus musculus with 12 samples.

Results

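The extracellular matrix proteases and their tissue inhibitors described here are 10 genes: the matrix metalloproteinase genes Mmp2, Mmp13 and Mmp14, the aggrecanase-type genes Adamts1, Adamts4 and Adamts5, the plasminogen activator gene Plau, and the inhibitor genes Timp1, Timp2 and Timp3. They were found by gene symbol, and all 10 were listed in each of the 3 deposited tables, among 11775 genes in the PTH table, 11484 in the PF431396 table and 11592 in the PDE8A knockout (KO) table. Both the change of each gene and the balance between the 7 proteases and the 3 inhibitors in every library were followed.

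Transcript levels were measured by RNA sequencing in Ocy454 cells, an established mouse cell line with features of osteocytes, the cells buried in bone matrix. The 12 samples formed 4 groups of 3. These were wild-type cells with PTH (parathyroid hormone), wild-type cells with PF431396, an inhibitor of the focal adhesion kinases FAK and PYK2, cells labelled PDE8A KO, with a knockout of the gene for a cAMP-degrading phosphodiesterase, and wild-type cells with vehicle. Column names give DMSO for the vehicle and the KO libraries, and the labels do not say whether the KO cells are 1 clone or which part of Pde8a is deleted. Doses, treatment times and whether libraries come from separate cultures are not stated in the labels, so p-values measure only the spread between these libraries, which may be technical. Each table sets 1 group beside the same 3 vehicle libraries, which the authors rescaled in each table.

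Matrix metalloproteinases are zinc proteases made as inactive zymogens that cut collagens and other matrix proteins once activated, and ADAMTS proteases cut large proteoglycans such as aggrecan and versican. Urokinase, the product of Plau, turns plasminogen into plasmin, which degrades matrix and can activate zymogens. TIMP proteins bind the active site of metalloproteinases and block it, but they do not inhibit urokinase, a serine protease. In bone, osteocytes are known to remodel the matrix around their lacunae with such proteases, and PTH is a known inducer of Mmp13 in osteoblastic cells.

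Depth was taken by scaling values back to whole counts and summing the listed rows of each table. It ran between 27715795 and 35752975 estimated counts per library, and no listed gene had fewer than 11 in any library. A gene not listed in a table is therefore not shown to be absent from the cells. PF431396 replicates 1 and 3 had identical values in all 11490 rows of their table, and here count as a single library, which leaves n = 2 for PF431396. Vehicle replicate 1 stood apart: in the PTH table its log2 values correlated across genes, which are not independent replicates, at r = 0.947 and 0.944 with the other 2 vehicle libraries, which reached 0.992 between themselves. It was the lowest vehicle library for 9 of the 10 genes and the highest for Timp3. Mitochondrial transcripts made up 4.5% to 4.8% of counts under PTH, at least 11.8% under PF431396, 3.61% to 4.30% in the KO and 3.82% to 5.19% with vehicle. Pde8a itself was at 2037 to 2438 normalised estimated counts in KO libraries and 2579 to 3100 in vehicle libraries, a log2 fold change of -0.39 ± 0.14 (SE, adjusted p = 0.0681). Because the deleted part is not given, that level does not check the KO label.

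The sequences just upstream of 3 of these genes are shown because all 3 rose under PTH and an entry was at hand. RefSeq promoter windows (build GRCm38.p6) matched 6 of the 10 genes: Mmp13, Mmp14, Adamts1, Timp1, Timp2 and Timp3. The 250 bases before the transcription start are given 5′ to 3′ on the gene's own strand, with motif matches in capitals. They lie at chr9:7272264-7272513 on the plus strand for Mmp13, chr16:85803114-85803363 on the minus strand for Adamts1 and chrX:20869916-20870165 on the plus strand for Timp1.
Mmp13: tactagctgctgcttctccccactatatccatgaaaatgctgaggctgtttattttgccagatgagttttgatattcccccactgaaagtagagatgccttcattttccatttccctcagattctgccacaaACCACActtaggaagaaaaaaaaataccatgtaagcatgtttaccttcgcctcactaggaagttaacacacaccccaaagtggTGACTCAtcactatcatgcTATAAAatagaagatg
Adamts1: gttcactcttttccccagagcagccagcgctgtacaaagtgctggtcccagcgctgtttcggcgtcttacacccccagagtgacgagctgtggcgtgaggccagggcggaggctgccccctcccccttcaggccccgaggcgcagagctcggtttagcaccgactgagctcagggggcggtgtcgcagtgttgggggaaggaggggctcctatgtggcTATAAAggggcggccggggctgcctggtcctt
Timp1: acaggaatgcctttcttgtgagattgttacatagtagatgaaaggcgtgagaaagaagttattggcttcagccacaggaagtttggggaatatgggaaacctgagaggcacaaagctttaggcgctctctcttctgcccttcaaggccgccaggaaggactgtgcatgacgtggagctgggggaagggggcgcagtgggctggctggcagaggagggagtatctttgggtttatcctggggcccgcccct
The capitals in Mmp13 mark, in order, a RUNX motif (ACCACA, 118 to 113 bases before the start), an AP-1 motif (TGACTCA, 35 to 29 bases before) and a TATA motif (TATAAA, 16 to 11 bases before). In Adamts1 they mark a TATA motif (TATAAA, 32 to 27 bases before), and Timp1 held none of the motifs searched. RUNX, AP-1, the cAMP response element TGACGTCA and the NR4A element AAAGGTCA were searched on both strands and TATAAA on the gene's strand, and no matches overlapped. Of the other windows, Mmp14 held a RUNX motif 114 to 109 bases before the start, and Timp2 and Timp3 held none. Among 32851 windows of this length, 14.0% held the RUNX motif, 4.46% the AP-1 motif, 0.712% both, 7.59% the TATA motif, 1.55% the cAMP response element and 1.34% the NR4A element. A match describes the letters only.

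Most of the 10 genes had higher mean levels in each perturbed group than with vehicle, and under PTH the protease to inhibitor balance also lay above vehicle. A gene was called changed where limma's adjusted p, over all genes of its table, was below 0.05 and its level differed by 1 log2 unit or more. The 10 genes were chosen with earlier results of these data known, so the shares of all genes beside them are a description only. Under PTH 7 of the 10 rose and 0 fell, against 2.86% of all genes called higher and 1.01% called lower (3.87% in all). Under PF431396 6 rose and 0 fell, against 10.9% called higher and 15.2% called lower (26.2% in all). In the KO 3 rose and 0 fell, against 6.32% called higher and 5.13% called lower (11.5% in all). The median log2 fold change over the 10 genes was 1.78 under PTH, 1.36 under PF431396 and 0.86 in the KO, where the median of all genes was -0.0034, -0.016 and -0.0022.

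Mmp2 was the 1 gene called higher in all 3 comparisons. Under PTH 9 of the 10 genes lay above vehicle without overlap, against 19% of all genes above and 16.8% below (35.9% in all). Under PF431396 8 lay above and 2 below, against 31.8% of all genes above and 34% below (65.8% in all). In the KO 9 lay above, against 25.4% of all genes above and 24.4% below (49.8% in all).

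Scaling mattered for PF431396. With every library set to the same total, the median change over all genes moved to -0.55 log2 units under PF431396 and -0.12 under PTH. The genes called higher and lower then numbered 344 and 3470 under PF431396, in place of 1257 and 1748 as deposited, and 293 and 175 under PTH, in place of 337 and 119. For the KO these counts were 727 and 602 at the same total, in place of 733 and 595. Under that scaling 7 of the 10 genes still rose under PTH and 3 in the KO. Under PF431396, 2 rose, Mmp13 (log2 fold change 2.54) and Mmp2 (1.39), and 2 fell, Adamts1 (-1.71) and Adamts5 (-1.39).

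**Figure D1:**
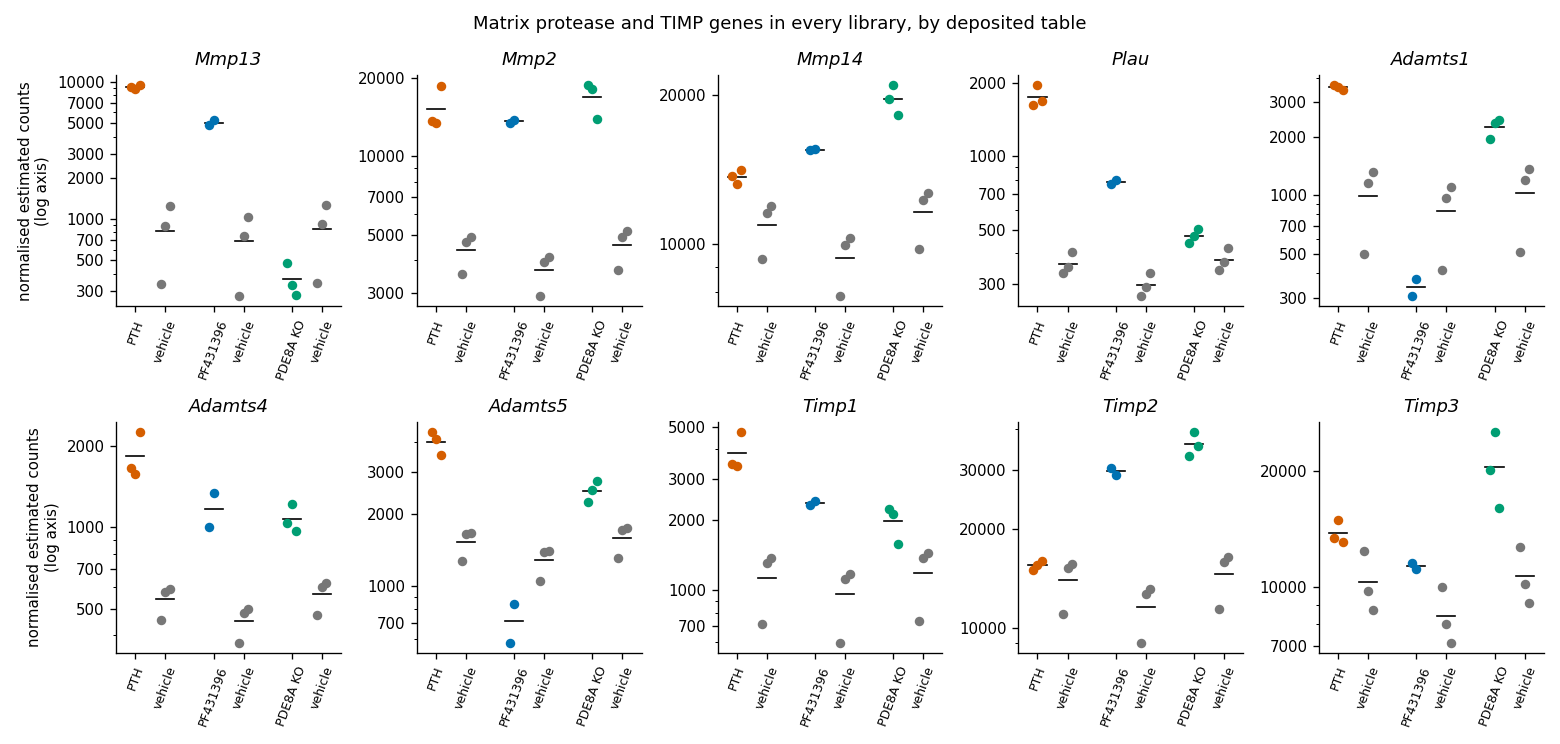
Normalised estimated counts (log axis) of the 10 genes in every library, in 3 pairs per panel: PTH, PF431396 and PDE8A KO, each left of the vehicle libraries of its own table; points are libraries and bars are means. Mmp13 lies at 8893 to 9447 under PTH and 281 to 481 in the KO, and Mmp2 is above vehicle in all 3 pairs.

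Mmp13, the main collagenase of rodent bone (chromosome 9, 7272514 to 7283331, plus strand, GRCm38), showed the largest increases of the 10 genes, under PTH and under PF431396. It was at 9214, 8893 and 9447 normalised estimated counts in the PTH libraries, against 334, 897 and 1239 in the vehicle libraries of the same table. The PTH libraries were close together and far above a scattered vehicle group, and the log2 fold change was 3.67 ± 0.44 (SE, adjusted p = 0.00409), or 3.12 without vehicle replicate 1. Under PF431396 it was at 4815 and 5266, against 275, 751 and 1039 with vehicle. That was a log2 fold change of 3.07 ± 0.53 (adjusted p = 0.00777), which did not pass without either PF431396 library (adjusted p = 0.0574 and 0.0677) and was 2.51 without vehicle replicate 1.

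In the KO Mmp13 was at 481, 333 and 281, against 339, 921 and 1273 with vehicle. The groups overlapped through vehicle replicate 1, the log2 fold change was -1.05 ± 0.47 and the adjusted p was 0.128. Without that vehicle library Mmp13 passed as lower in the KO, at -1.60 (adjusted p = 0.000743), and the authors' deposited table gives -1.21 with an adjusted p of 0.0157.

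Mmp2 encodes a gelatinase that cuts denatured collagen and basement membrane proteins (chromosome 8, 92827291 to 92853420, plus strand). Its levels were 13696, 13459 and 18703 normalised estimated counts under PTH, against 3543, 4677 and 4915 with vehicle. PF431396 libraries held 13497 and 13838, against 2911, 3918 and 4121 with vehicle. KO libraries held 18772, 18166 and 13898, against 3672, 4908 and 5160 with vehicle. The 3 increases were of like size: log2 fold changes of 1.80 ± 0.18 under PTH (adjusted p = 0.00198), 1.92 ± 0.19 under PF431396 (0.00262) and 1.89 ± 0.18 in the KO (0.000607), and no library left out ended any of them.

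Mmp14 encodes a membrane-bound metalloproteinase that cuts collagen at the cell surface and activates the Mmp2 zymogen, a step in which the Timp2 protein serves as an adaptor (chromosome 14, 54431612 to 54445364, plus strand). It lay at 13212 to 14122 normalised estimated counts under PTH, against 9328 to 11936 with vehicle (log2 fold change 0.33 ± 0.12, adjusted p = 0.151). PF431396 libraries were at 15484 and 15552, against 7874 to 10285 with vehicle (0.74 ± 0.16, adjusted p = 0.0169, and 0.20 at the same total). KO libraries were at 18272 to 20930, against 9794 to 12700 with vehicle (0.76 ± 0.14, adjusted p = 0.00783). Groups did not overlap in any table, but no fold change reached the threshold.

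Plau, the urokinase gene (chromosome 14, 20836660 to 20843385, plus strand), had the smallest vehicle spread of the proteases, relative to its mean. It was at 1628, 1956 and 1685 normalised estimated counts under PTH, against 331, 353 and 403 with vehicle, a log2 fold change of 2.27 ± 0.14 (adjusted p = 0.000343). PF431396 libraries held 768 and 796, against 267, 290 and 332 with vehicle, at 1.40 ± 0.24 (adjusted p = 0.00734), and 0.87 at the same total. The KO libraries, at 441, 473 and 505, lay just above the vehicle libraries at 341, 368 and 421, and 0.33 ± 0.17 did not pass (adjusted p = 0.177).

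Of the 3 aggrecanase-type genes, Adamts4 was called higher under PF431396, while Adamts1 and Adamts5 were not called there. Adamts1 (chromosome 16, 85793827 to 85803113, minus strand) was at 3662, 3591 and 3467 normalised estimated counts under PTH, against 503, 1157 and 1316 with vehicle. PF431396 libraries held 306 and 375, against 415, 974 and 1109 with vehicle. KO libraries held 1936, 2343 and 2427, against 514, 1197 and 1362 with vehicle. PTH and KO libraries were thus above, and PF431396 libraries below, every vehicle library. The log2 fold changes were 1.96 ± 0.34 under PTH (adjusted p = 0.0182), -1.17 ± 0.45 under PF431396 (0.0817) and 1.24 ± 0.34 in the KO (0.0331).

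Those Adamts1 calls did not pass in every run with 1 library left out. The PTH call ended without any 1 PTH library, where the log2 fold change stayed at 1.95 to 1.99 (adjusted p = 0.0868 to 0.0985). It passed without vehicle replicate 1, at 1.53 (adjusted p = 3.46e-06). The KO call ended without vehicle replicate 1 (0.80) or any 1 KO library (adjusted p = 0.0865 to 0.110). Under PF431396 the gene passed as lower without vehicle replicate 1, at -1.61 (adjusted p = 0.00300), and in the authors' deposited table, at -1.34 (adjusted p = 0.00126). That deposited table holds the identical PF431396 replicates 1 and 3 as separate libraries.

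Adamts5, which encodes a major aggrecanase of mouse cartilage, is the neighbour of Adamts1 on the same strand of chromosome 16 (85856173 to 85901828), 53060 bases away. It was at 4384, 4092 and 3514 normalised estimated counts under PTH, against 1270, 1642 and 1663 with vehicle (log2 fold change 1.39 ± 0.15, adjusted p = 0.00255). PF431396 libraries held 580 and 845, against 1048, 1383 and 1402 with vehicle (-0.86 ± 0.25, adjusted p = 0.0397, under the fold threshold). KO libraries held 2233, 2519 and 2752, against 1313, 1720 and 1743 with vehicle (0.66 ± 0.16, adjusted p = 0.0206, under the fold threshold). The pattern over the 3 groups had the same order as that of Adamts1, with no overlap with vehicle in any table.

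Adamts4, another aggrecanase gene (chromosome 1, 171250421 to 171260637, plus strand), did not share the low PF431396 level. It lay at 1582 to 2256 normalised estimated counts under PTH, against 455 to 593 with vehicle, and rose by a log2 fold change of 1.75 ± 0.18 (adjusted p = 0.00243). PF431396 libraries were at 1000.03 and 1336, against 374 to 497 with vehicle, a rise of 1.37 ± 0.25 (adjusted p = 0.00916) that ended without PF431396 replicate 2 (1.16, adjusted p = 0.0576) and at the same total (0.84). In the KO it was at 971 to 1224, against 473 to 624 with vehicle, and 0.93 ± 0.17 fell short of the fold threshold (adjusted p = 0.00763), but passed without vehicle replicate 3 or KO replicate 3, at 1.00 in each run.

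Timp1, the inducible inhibitor gene (chromosome X, 20870166 to 20874735, plus strand), was the TIMP gene that rose under PTH. It was at 3479, 3389 and 4744 normalised estimated counts under PTH, against 713, 1308 and 1374 with vehicle (log2 fold change 1.81 ± 0.27, adjusted p = 0.0105). That call ended without any 1 PTH library, at 1.66 to 1.90 and adjusted p = 0.0522 to 0.0681, and passed without vehicle replicate 1, at 1.51 (adjusted p = 0.0001). PF431396 libraries held 2319 and 2399, against 596, 1115 and 1172 with vehicle (1.36 ± 0.32, adjusted p = 0.0201), which did not pass without either PF431396 library (adjusted p = 0.0981 and 0.112) or at the same total (0.82). KO libraries held 2233, 2123 and 1580, against 736, 1368 and 1437 with vehicle, without overlap but at 0.79 ± 0.27 (adjusted p = 0.0667).

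Timp2, the inhibitor that also takes part in Mmp2 activation (chromosome 11, 118301069 to 118355740, minus strand), was called higher under PF431396 and in the KO. PTH libraries held 14970, 15555 and 15979 normalised estimated counts, inside the reach of the vehicle libraries at 11040, 15194 and 15681 (log2 fold change 0.17 ± 0.15, adjusted p = 0.533). PF431396 libraries held 30617 and 29112, against 9046, 12697 and 13114 with vehicle (1.38 ± 0.20, adjusted p = 0.00476, and 0.85 at the same total). KO libraries held 33165, 39179 and 35601, against 11413, 15906 and 16425 with vehicle (1.32 ± 0.17, adjusted p = 0.00191).

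Timp3 encodes the matrix-bound TIMP that also inhibits aggrecanases (chromosome 10, 86300372 to 86349506, plus strand), and it was not called in any comparison. It lay at 13109 to 14915 normalised estimated counts under PTH, against 8712 to 12406 with vehicle (log2 fold change 0.44 ± 0.15, adjusted p = 0.126). It lay at 11157 and 11517 under PF431396, against 7160 to 9989 with vehicle (0.45 ± 0.18, adjusted p = 0.0900), and was -0.09 at the same total. In the KO it lay at 16033 to 25303, against 9065 to 12739 with vehicle (0.93 ± 0.20, adjusted p = 0.0137, under the fold threshold). It passed as higher in the KO without vehicle replicate 1 (1.07, adjusted p = 0.00114) or KO replicate 3 (1.10, adjusted p = 0.0215).

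Timp1, Timp2 and Timp3 overlap other protein-coding genes that are also listed, Syn1, Cep295nl and Syn3. All of these but Cep295nl lie on the opposite strand, and nothing in the labels says whether counting used the strand, so reads shared by such pairs cannot be told apart.

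**Figure D2:**
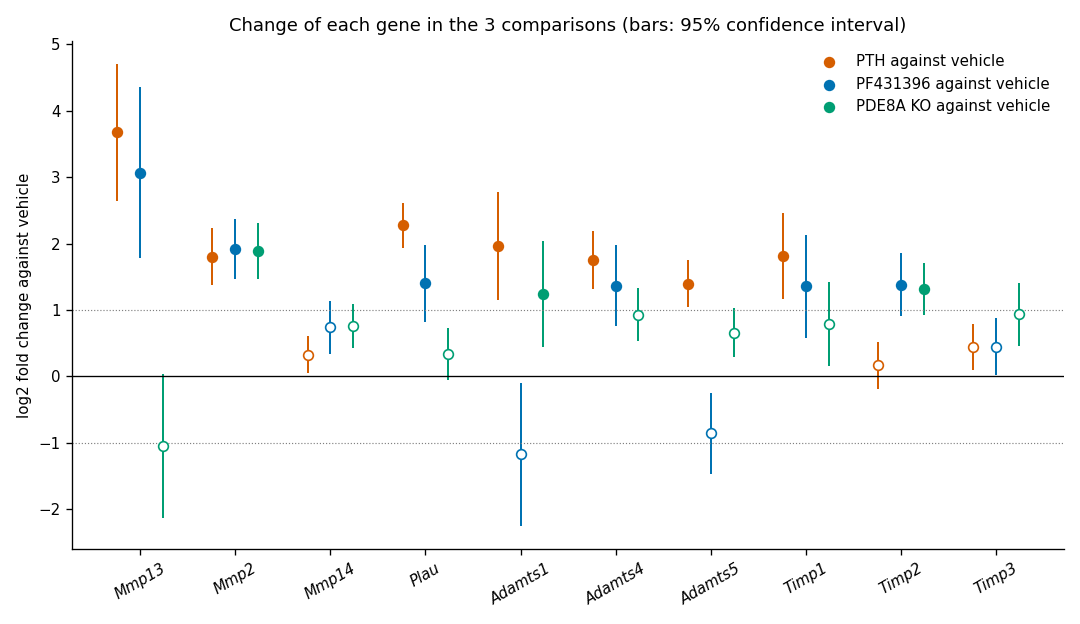
Log2 fold change against vehicle of the 10 genes under PTH, PF431396 and PDE8A KO; bars are 95% confidence intervals, filled points passed both thresholds and dotted lines mark a log2 fold change of 1 and -1. Mmp2 is filled in all 3 comparisons, and Adamts1 and Adamts5 lie below 0 under PF431396 alone while Mmp13 lies below 0 in the KO alone.

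The protease to inhibitor balance was raised under PTH by more than the spread between libraries. It is the mean log2 level of the 7 proteases minus the mean log2 level of the 3 TIMP genes in a library, a description with no p-value. It was -0.84, -0.90 and -0.92 in the PTH libraries and -2.19, -1.93 and -1.77 in the vehicle libraries, so the groups were clearly apart. The means were -0.88 ± 0.04 and -1.96 ± 0.21 (SD, n = 3 each), a difference of 1.08, which lay between 0.96 and 1.17 with any 1 library left out. Mean protease log2 levels were 12.3 to 12.4 under PTH and 9.98 to 10.7 with vehicle, and mean TIMP log2 levels 13.1 to 13.3 under PTH and 12.2 to 12.5 with vehicle.

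No such shift was seen in the other groups. The balance was -2.21 and -1.98 under PF431396 and -2.18, -1.92 and -1.76 with vehicle, a difference of -0.14 with overlap. In the KO it was -2.31, -2.43 and -2.15, against -2.19, -1.93 and -1.77 with vehicle, a difference of -0.33 with overlap. Leaving out 1 library gave -0.26 to -0.02 under PF431396, where the value was smallest without PF431396 replicate 1, and -0.45 to -0.24 in the KO. In these 2 groups mean TIMP levels were also above vehicle, at 13.2 in both PF431396 libraries, against 11.9 to 12.2 with vehicle, and 13.2 to 13.6 in the KO, against 12.2 to 12.6 with vehicle.

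Summed levels give abundant genes more weight. The log2 ratio of summed proteases to summed TIMP genes, each per kilobase of the longest coding transcript, was 0.33 to 0.41 under PTH and -0.47 to -0.24 with vehicle. It was -0.19 and -0.10 under PF431396 and -0.44 to -0.21 with vehicle, above every vehicle library by a narrow margin. In the KO it was -0.42 to -0.24, against -0.45 to -0.22 with vehicle. The difference from vehicle was thus 0.72 under PTH, 0.17 under PF431396, where it has the other sign than the mean of logs, and -0.01 in the KO. Leaving Plau out of the proteases, which TIMP proteins do not inhibit, gave differences in the mean of logs of 1.01, -0.22 and -0.28. None of these measures takes account of which TIMP inhibits which protease, and all rest on transcript levels.

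**Figure D3:**
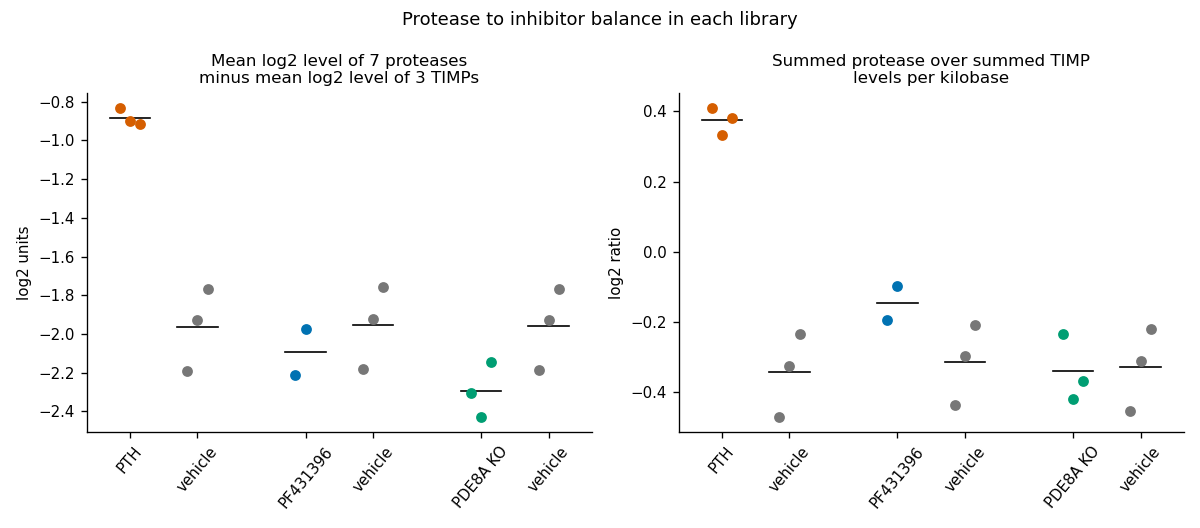
Protease to inhibitor balance in each library, as the mean log2 level of 7 proteases minus that of 3 TIMP genes (left panel, log2 units) and as the log2 ratio of summed levels per kilobase (right panel); points are libraries, bars are means, and each group stands left of the vehicle libraries of its table. PTH libraries lie at -0.92 to -0.84 in the left panel, above every vehicle library.

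The make-up of both classes differed between groups. Per kilobase, Mmp13 made up 24.0%, 23.6% and 21.8% of summed protease transcripts in PTH libraries, 15.5% and 16.3% under PF431396, 1.35%, 0.91% and 0.92% in the KO, and 2.63% to 7.15% in the vehicle libraries over the 3 tables. Mmp14 held 26.9% to 29.5% under PTH, 39.8% and 41.1% under PF431396 and 45.3% to 49.3% in the KO, against 56.9% to 63.0% with vehicle. Mmp2 held 31.0% to 37.4% under PTH, 37.3% and 37.7% under PF431396 and 39.4% to 45.6% in the KO, against 24.3% to 24.9% with vehicle. Together these values show the Mmp14 share lower in every group than with vehicle and the Mmp2 share higher.

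Among the inhibitors, Timp1 made up 34.3% to 43.1% of summed TIMP transcripts under PTH, against 12.6% to 20.4% with vehicle in that table. In PF431396 libraries it made up 19.7% and 21.0%, against 12.9% to 20.8% with vehicle. In KO libraries it made up 12.1% to 16.1%, against 12.6% to 20.4% with vehicle. Timp2 was the largest TIMP share under PF431396, at 60.7% and 62.0%, and in the KO, at 56.8% to 64.9%, as it was with vehicle, at 46.4% to 55.5%. A raised Timp1 share, without overlap with vehicle, was thus seen under PTH.

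**Figure D4:**
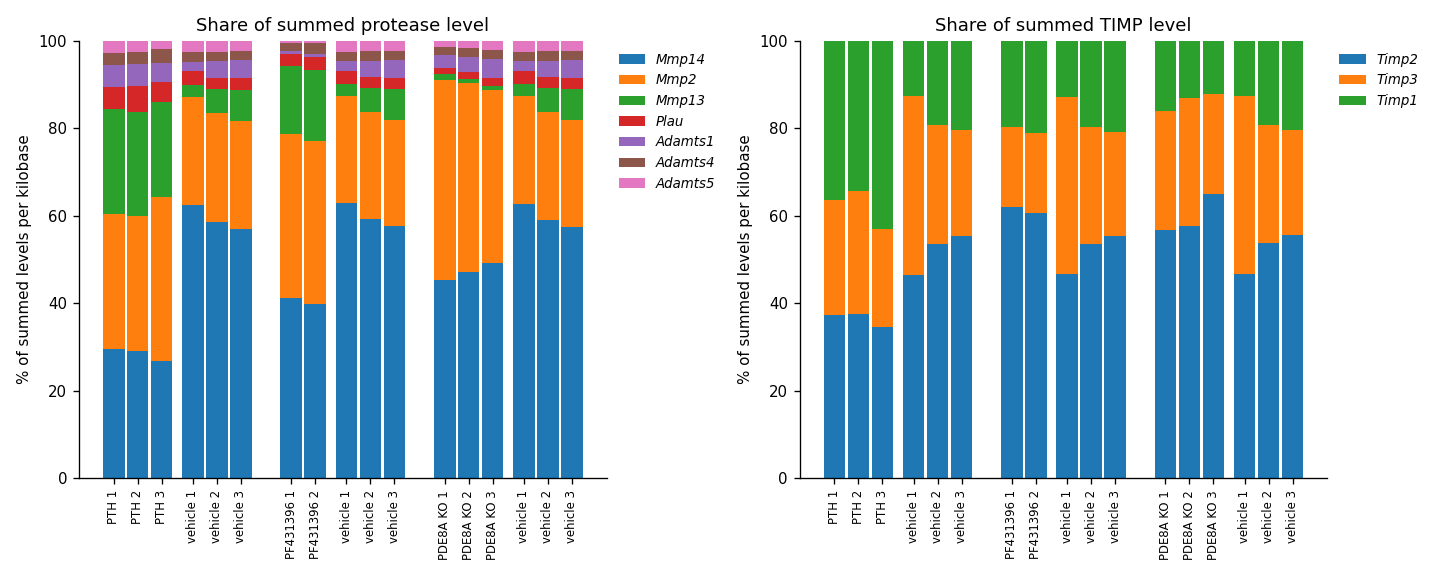
Share of each gene in the summed level per kilobase of the 7 proteases (left panel) and of the 3 TIMP genes (right panel), in % of the sum, for every library, with each group left of its vehicle libraries. The Mmp13 band is 21.8% to 24.0% of the proteases under PTH and 0.91% to 1.35% in the KO, and the Timp1 band is 34.3% to 43.1% of the TIMP genes under PTH.

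The order of levels per kilobase changed with the group. Under PTH the means ran Mmp2 (4966 normalised estimated counts per kilobase), Timp1 (4383), Mmp14 (4225) and Timp2 (4179), 4 neighbours whose libraries overlapped, then Mmp13 (3436), Timp3 (2925), Plau (750.0), Adamts1 (731.7), Adamts4 (417.5) and Adamts5 (370.4). Plau and Adamts1 overlapped, as did Adamts4 and Adamts5. With vehicle in the same table Timp2 (3767) and Mmp14 (3381) overlapped at the top, Timp3 (2181) followed, and Mmp2 (1422) overlapped Timp1 (1282). Below these came Mmp13 (308), Adamts1 (203), Plau (155), Adamts5 (141) and Adamts4 (123), each overlapping the next.

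Under PF431396 the order was Timp2 (8052), Mmp14 (4792), Mmp2 (4440), Timp1 (2672), Timp3 (2401), Mmp13 (1886), Plau (334), Adamts4 (266), Adamts1 (69.7) and Adamts5 (66.0), and of these neighbours the last pair overlapped. In the KO Timp2 (9701) stood first, Mmp14 (6055), Mmp2 (5505) and Timp3 (4340) overlapped in turn, and Timp1 (2241) and Adamts1 (458) followed. Adamts4 (246), Adamts5 (232) and Plau (202) overlapped in turn, and Mmp13 (136) was last.

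The 3 responses were also set against each other, as differences of vehicle-relative log2 values over the 11082 genes in all 3 tables. The vehicle mean is subtracted in each table, and its error is not part of these standard errors. Between PTH and PF431396, 3 of the 10 genes passed the same thresholds, 2 higher and 1 lower under PTH, against 19.1% of all genes higher and 15% lower (34.1% in all). Adamts1 was higher under PTH by 3.14 ± 0.12 log2 units (adjusted p = 0.000686) and Adamts5 by 2.25 ± 0.20 (0.000999), and Timp2 was lower under PTH, at -1.21 ± 0.09 (0.000769). At the same total, all genes called higher and lower numbered 3364 and 691, in place of 2117 and 1662, and the Timp2 difference was -0.80, under the threshold, while Mmp13 (1.02) and Plau (1.29) passed it.

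Between PTH and the KO, 4 of the 10 passed, 3 higher and 1 lower under PTH, against 8.29% of all genes higher and 7.46% lower (15.8% in all). Mmp13 was higher under PTH by 4.72 ± 0.21 log2 units (adjusted p = 1.18e-05), Plau by 1.94 ± 0.14 (5.24e-05) and Timp1 by 1.02 ± 0.20 (0.00365), and Timp2 was lower, at -1.15 ± 0.11 (0.000152). The Timp1 difference was 0.87 without PTH replicate 3 and 0.87 without KO replicate 3, and 0.91 at the same total, each under the threshold. At the same total the calls over all genes were 745 higher and 1074 lower, in place of 919 and 827.

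Between PF431396 and the KO, 4 of the 10 passed, 2 higher and 2 lower under PF431396, against 13.8% of all genes higher and 18.9% lower (32.6% in all). Mmp13 was higher under PF431396 by 4.12 ± 0.25 log2 units (adjusted p = 0.000484) and Plau by 1.07 ± 0.13 (0.00156). Adamts1 was lower, at -2.41 ± 0.17 (0.000493), and so was Adamts5, at -1.51 ± 0.20 (0.00210). At the same total the calls over all genes were 721 higher and 3698 lower, in place of 1527 and 2090. The Plau difference was then 0.54, under the threshold, and Timp3 passed it at -1.01.

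Differences in Mmp2 were small and uncertain: -0.12 log2 units for PTH minus PF431396 (95% confidence interval -0.67 to 0.43), -0.09 for PTH minus KO (-0.57 to 0.39) and 0.03 for PF431396 minus KO (-0.49 to 0.55). Mmp14 differed by -0.41 (-0.63 to -0.18), -0.43 (-0.66 to -0.21) and -0.03 (-0.35 to 0.30) in those contrasts, and Adamts4 by 0.38 (-0.24 to 1.00), 0.82 (0.39 to 1.25) and 0.44 (-0.05 to 0.92). The Mmp2 intervals thus reach as far as -0.67, -0.57 and 0.55. At the same total the Mmp2 differences were 0.30, -0.20 and -0.50, and signs also turned for Mmp14 in PTH minus PF431396 (0.0078) and Adamts4 in PF431396 minus KO (-0.0914).

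Genes that work with these proteases were counted by list. Of all genes, 2.86% were called higher and 1.01% lower under PTH. Under PTH, Plaur, the urokinase receptor gene, rose by a log2 fold change of 2.51 ± 0.17 (SE, adjusted p = 0.000445), to 5842 ± 772 normalised estimated counts under PTH, against 1028 ± 193 with vehicle (SD, n = 3 each). It was the 1 called of 4 listed plasminogen activation partners, with 0 lower, and 1 fell beside it without vehicle replicate 1. Of 4 other inhibitors and uptake receptors, Lrp1, a receptor that clears proteases and their complexes, rose by 1.60 ± 0.19 (adjusted p = 0.0037). Reck, a membrane inhibitor of metalloproteinases, fell by 1.01 on the log2 scale (SE 0.23, adjusted p = 0.0438), a call that ended without vehicle replicate 2 or 3 or any 1 PTH library.

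Few genes of the other lists passed under PTH. Of 8 other ADAMTS genes Adamts9, a versican-cleaving protease gene, rose by 1.27 ± 0.27 (adjusted p = 0.0357) and 0 fell, a call that ended without vehicle replicate 1 or any 1 PTH library. None of 6 other matrix metalloproteinase genes, 10 zymogen activator and sheddase genes, 6 other matrix protease genes and 11 matrix substrate genes passed limma's test with the fold threshold, though 1 substrate gene rose without vehicle replicate 3. At an unadjusted p below 0.05 these lists held 1, 4, 2 and 2 genes, against 2867 of all 11775 genes. The authors' deposited table calls 0, 1, 0 and 1, against 672 of 11774 genes. The median log2 fold change of these 4 lists was -0.24, 0.38, 0.15 and 0.52.

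Under PF431396 the wider protease and matrix lists moved more, in libraries where 26.2% of all genes were called. All 6 listed other matrix protease genes rose, among them Ctsk, the cathepsin K gene (log2 fold change 2.32 ± 0.23, adjusted p = 0.0026), the cathepsin gene Ctsb (1.83 ± 0.19) and Htra1 (1.68 ± 0.19), which encodes a secreted serine protease. Of these, 5 rose at the same total. Of 11 substrate genes 7 rose and 0 fell, among them the fibronectin gene Fn1 (1.17 ± 0.13), the osteopontin gene Spp1 (2.29 ± 0.33) and the collagen gene Col3a1 (2.38 ± 0.41). They numbered 4 at the same total, where Fn1 was 0.63, and 2 without PF431396 replicate 1 or 2, where the Col3a1 call ended. Among 10 activator and sheddase genes 3 rose, including the sheddase genes Adam17 (1.34 ± 0.18) and Adam15 (1.65 ± 0.24), while Furin, a convertase that activates zymogens such as that of Mmp14, fell by 1.18 on the log2 scale (SE 0.20). At the same total 1 rose and 1 fell, with Adam17 at 0.81, and without PF431396 replicate 2, 2 rose and 0 fell.

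Smaller PF431396 lists rested on few calls. Of 4 other inhibitors and uptake receptors, Cst3, the cystatin C gene (1.70 ± 0.28), and Lrp1 (1.34 ± 0.22) rose and 0 fell, with 0 called without PF431396 replicate 1, 1 without replicate 2 and 1 at the same total. Mmp23 (1.81 ± 0.56) rose and Mmp28 (-1.22 ± 0.35) fell among 5 other metalloproteinase genes, a count of 2 that was 0 or 1 with any 1 library left out. Adamts10 (1.15 ± 0.29) and Adamts2 (1.09 ± 0.24), a procollagen-processing protease gene, rose among 8 ADAMTS genes. Their list had 0 calls without vehicle replicate 1 or either PF431396 library, and at the same total, and 4 without vehicle replicate 3. Serpine2, a gene for an inhibitor of urokinase, rose by 1.87 ± 0.51 among 4 plasminogen activation partners, with 0 calls without either PF431396 library or at the same total and 2 without vehicle replicate 3.

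In the KO 6.32% of all genes were called higher and 5.13% lower. There 5 of 6 other matrix protease genes rose, among them the cathepsin genes Ctsl (log2 fold change 1.63 ± 0.15, adjusted p = 0.00056) and Ctsb (1.66 ± 0.18) and Htra1 (1.63 ± 0.17). The 1 that fell was Bmp1, the procollagen C-proteinase gene, named after its value was seen (-1.02 ± 0.18), a call that ended without vehicle replicate 2 or 3 or KO replicate 1 or 2. Of 6 other metalloproteinase genes 3 rose and 0 fell: Mmp19 (1.79 ± 0.16), Mmp23 (2.86 ± 0.36) and Mmp15 (1.03 ± 0.31), the last of which did not pass with any 1 library left out. The substrate genes were split, with 2 of 11 higher, among them the proteoglycan gene Dcn (5.71 ± 0.29), and 2 lower, Ibsp (-6.42 ± 0.59), the bone sialoprotein gene, and the tenascin gene Tnc (-2.65 ± 0.26).

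Pcsk6, a convertase gene, fell by 5.11 on the log2 scale (SE 0.47) in the KO, and the sheddase gene Adam12 by 2.48 (SE 0.53), while Adam15 rose by 1.27 ± 0.17, which made 1 higher and 2 lower of 10 activators and sheddases. The Adam12 call ended without KO replicate 1 or 2. Adamts9 was lower, at -1.48 ± 0.30, the 1 call of 7 other ADAMTS genes, which became 3 lower without vehicle replicate 1 and 0 without KO replicate 1. Plat, the tissue plasminogen activator gene, rose by 1.77 ± 0.37 among 3 partners of plasminogen activation, a call that ended without KO replicate 2. Serpine2 was listed in the PTH and PF431396 tables but not in the KO table, so its level in the KO is not known here. Lrp1 (1.08 ± 0.20) and Cst3 (1.00 ± 0.23) rose among 4 other inhibitors and uptake receptors, a count of 2 that was 0 without vehicle replicate 1 or KO replicate 1, 1 without KO replicate 2 or 3, and 1 at the same total.

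Genes for known regulators of Mmp13 formed another list, and the RUNX and AP-1 motifs before its start are shown above. AP-1 factors are dimers of Fos and Jun proteins, and in rat osteoblastic cells PTH is known to act on Mmp13 through Runx2, AP-1 and Hdac4. Of 10 such genes 5 rose and 0 fell under PTH, including Fosl2 (log2 fold change 2.67 ± 0.12), Junb (2.39 ± 0.12) and Fosl1 (3.55 ± 0.28). Hdac4 was also among those that rose under PTH (1.47 ± 0.17), while Runx2 was not called (0.53 ± 0.38, adjusted p = 0.427). Both were named after their values were seen. Under PF431396 4 rose and 0 fell, including Jund (1.57 ± 0.14), Jun (3.18 ± 0.31) and Junb (1.54 ± 0.17), and at the same total 4 rose and 1 fell. In the KO Fosl1 rose by 2.54 ± 0.31 and 0 fell, while without vehicle replicate 1 the count was 1 higher and 1 lower. Of all genes, 2.86%, 10.9% and 6.32% were called higher and 1.01%, 15.2% and 5.13% lower under PTH, PF431396 and KO. The part of these regulators and motifs in the Mmp13 levels was not tested.

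Cell type markers were checked beside these results, where 2.86%, 10.9% and 6.32% of all genes were called higher under PTH, PF431396 and KO. The shares called lower were 1.01%, 15.2% and 5.13%. Of 13 osteocyte and osteoblast markers 10 were listed, and Mepe, Sost and Fgf23 were not. Of those listed 1 rose and 0 fell under PTH, 1 rose and 0 fell under PF431396, and 1 rose and 7 fell in the KO, among them Pth1r, the PTH receptor gene, at 345 ± 24.1 normalised estimated counts in the KO and 7516 ± 5498 with vehicle (SD, n = 3 each). The PTH call, Pdpn, ended without PTH replicate 3, and the PF431396 call, Bglap, without either PF431396 library. In the KO the Dmp1 call ended without KO replicate 2 or 3, and the Sp7 and Bglap calls without KO replicate 1, all 3 named after their values were seen. The summed level of the 10 listed markers was 167418 to 200473 under PTH, against 50549 to 222241 with vehicle. It was 226254 to 253265 under PF431396, against 41293 to 185622 with vehicle, and 75319 to 95590 in the KO, against 52415 to 233431 with vehicle. Col1a1, named after its value was seen, had the highest mean of these markers, at 82206 in the KO and 106053 with vehicle. The KO sum therefore mostly follows Col1a1, which was not called. In these bulk samples, fewer cells of a type and less RNA per cell cannot be told apart. The part of these marker levels in the results on proteases was not tested.

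Of 8 macrophage and osteoclast markers Cd68 and Ctsk were listed, summing to 726 to 1211 normalised estimated counts under PTH, against 848 to 1056 with vehicle. They summed to 3703 to 4809 under PF431396, against 708 to 865 with vehicle, and to 1685 to 3300 in the KO, against 869 to 1073 with vehicle. Both rose under PF431396, and Ctsk in the KO. The other markers, Adgre1, Csf1r, Acp5, Ptprc, Tyrobp and Mmp9, were not listed in any table, which does not show that they were absent. Of 6 chondrocyte markers 1 to 3 were listed, with 1 higher and 0 lower in each comparison, and Acan, Col2a1 and Col10a1 were not. The Sox9 call under PTH ended without vehicle replicate 2 or any 1 PTH library, the Comp call under PF431396 without PF431396 replicate 1, and the Sox9 call in the KO without KO replicate 1 or 2. Of 5 muscle markers Des and Acta2 were listed, with Des higher, a call that ended without vehicle replicate 3 or any 1 KO library, and Acta2 lower in the KO, and 0 of 5 endothelial and 0 of 5 adipocyte markers were listed. The part of these markers in the results was not tested.

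Last, the genes nearest to each member in their 3 log2 fold changes were found by Euclidean distance over 10522 genes whose mean level reached 100. The comparisons share the vehicle libraries, so likeness is partly built in. Mmp13 had no close neighbour: the nearest were Fos (distance 1.22, with 2.69, 2.95 and -0.34 under PTH, PF431396 and KO), Smoc2 (1.66) and Lepr (1.69). The nearest to Timp1 was Adamts4, at a distance of 0.15. Adamts1 was nearest to Fbxo32 (0.46), at 2.20, -0.81 and 1.39, and Mmp2 to Ptn (0.38), at 2.08, 2.08 and 2.09. For the rest, the nearest were Gnl1 to Mmp14 (0.088), Tagln2 to Adamts4 (0.13), Zfp874b to Adamts5 (0.17), Nfkbiz to Plau (0.17), Dysf to Timp2 (0.11) and Plpp2 to Timp3 (0.087).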

How the data were processed

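Total RNA from 12 Ocy454 samples was sequenced. The submitters' processing notes name FastQC 0.11.5, Salmon and DESeq2 as tools and GRCm38 as the build. The notes and labels used here give no other tool version, annotation release or strand setting. The signal in the 3 deposited tables is the authors' normalised estimated count. The authors' deposited log2 fold changes and adjusted p-values are quoted only where named, and the deposited -log10 column was not used. Rows that name no gene (6 in the PF431396 table and 8 in each of the others, at most 0.0249% of counts) and empty rows were left out.

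Each group was compared with vehicle in its own table with limma 3.58.1 (R 4.3.3, trend and robust variance, statmod 1.5.0) after adding a pseudocount of 1 and taking log2, with Benjamini-Hochberg adjustment over all genes. On this scale changes of low genes are understated. Levels per kilobase use the longest coding transcript in GENCODE's annotation of GRCm38. Overlaps between genes were taken from that annotation, and some are not reported here. The script was tested on simulated data. The members and lists were chosen with earlier results of these data known. Named genes are the 10 members, up to 3 called genes of each list and comparison with the smallest adjusted p, the nearest patterns, the targeted gene, and others said to be named after their values were seen. The alternatives were pseudocounts of 0.5 and 8, a mean level of at least 100, equal totals, a replicate block, limma without trend, the authors' values, leaving out each library, and 2 other forms of the balance. Same-numbered libraries did not deviate together in every pair, so replicate numbers were not used as pairs. Other steps used Python 3.11.15 with matplotlib 3.10.9, numpy 2.4.6 and pandas 2.3.3.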

Additional observations from a re-analysis of the deposited data

How the results depend on the processing

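With 3 libraries against 3, and 2 against 3 for PF431396, calls near the thresholds depend on single libraries. A run that leaves one out has fewer libraries, yet not always fewer calls. Without vehicle replicate 1, 614 genes were called under PTH, against 456 with all libraries. At limma's adjusted p below 0.05 alone, 3630, 5640 and 5265 genes then passed under PTH, PF431396 and KO, against 908, 4265 and 3223. Leaving out 1 library gave 219 to 614 genes changed under PTH (252, 245 and 219 without PTH replicates 1, 2 and 3), 1756 to 2917 under PF431396 (1756 without PF431396 replicate 2) and 967 to 1405 in the KO. Of the 10 genes, 5 to 7 were then called under PTH, 3 to 7 under PF431396 (3 without PF431396 replicate 2) and 2 to 4 in the KO. The balance differed from vehicle by 0.72, 0.17 and -0.0127 as summed levels per kilobase under PTH, PF431396 and KO, where abundant genes weigh more by construction.

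At the same total the PF431396 libraries, whose deposited totals are higher, are lowered by construction: Timp3 under PF431396 was then -0.0854. The small differences that changed sign at the same total were 0.30 for Mmp2, 0.0078 for Mmp14 and 0.40 for Timp3 in PTH minus PF431396, and -0.50 for Mmp2, -0.0914 for Adamts4 and -0.47 for Timp2 in PF431396 minus KO. With a replicate block, Timp3 in PTH minus PF431396 was 0.0263 and Mmp2 in PF431396 minus KO -0.11. Replicate 3 has no PF431396 partner, so these equal the values without PTH replicate 3 and without KO replicate 3. Leaving out 1 library gave -0.0668 to 0.0263 for Timp3 in PTH minus PF431396, and -0.11 to 0.11 for Mmp2 and -0.0768 to 0.0211 for Mmp14 in PF431396 minus KO. None of these differences was called as deposited, and the cause of their sign changes outside the same total was not tested.

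Same-numbered libraries had correlations of deviations of -0.05 to 0.03 under PTH, -0.02 to -0.01 under PF431396 and 0.06 to 0.10 in the KO. The KO values were weak but above those of differently numbered KO and vehicle libraries, at -0.10 to 0.04. These correlations do not settle whether the numbers mark pairs. A replicate block leaves vehicle replicate 3 without a partner under PF431396, so fold changes there equal those without that library (3.47 for Mmp13 in both). With the replicate block 403, 2749 and 1305 genes were called under PTH, PF431396 and KO, against 456, 3005 and 1328 without it, and 7, 6 and 3 of the 10 genes in both fits. The other pseudocounts, the minimum mean level and limma without trend and robust variance left those counts at 7, 6 and 3. The edgeR and DESeq2 tests planned for counts were not run, because the deposited values are normalised values, though they could be scaled back to whole estimated counts. Precision is limited by the number of libraries, and the depth of a gene under 11 estimated counts is not analysed here.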
